A study of Homo sapiens with 14 samples.

Results

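SATB1 sites with H3K27ac and without CTCF were SATB1 regions of Jurkat cells that carried an active chromatin mark and no CTCF peak. They were chosen on peak calls in control cells. A region had to be called in both SATB1 lists, on chromosomes 1 to 22 and X with peaks merged where they shared 1 bp. It also had to overlap by 1 bp an H3K27ac region called in both control lists, and to overlap no peak of any of the 3 control CTCF lists. The rule selected 1347 of 13072 SATB1 regions, or 1347 of the 9845 with H3K27ac. The 8498 regions with H3K27ac and at least 1 CTCF peak served as the comparison class, since both classes met the same H3K27ac condition.

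The libraries were CUT&Tag, in which a transposase tethered to an antibody cuts and tags DNA near the target. Jurkat is an established human line derived from a T cell leukaemia. Cells had been infected with lentivirus carrying an shRNA against SATB1 (shSATB1) or a control shRNA (shCtrl), and the groups were H3K27ac in shSATB1 (2 libraries) and shCtrl (2), CTCF in shSATB1 (3) and shCtrl (3), SATB1 in shCtrl (2), and Matrin 3 (2, whose labels name no shRNA). SATB1 itself was mapped only in shCtrl cells, so loss of SATB1 from these regions was not measured, and peak lists do not check the knockdown. Separate cultures are not stated for the replicates, and any spread between them may be technical.

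SATB1 is a nuclear protein, abundant in thymocytes and T cells, that binds AT-rich DNA and recruits chromatin remodelling and deacetylase complexes. H3K27ac, acetylation of lysine 27 on histone H3, marks active promoters and active enhancers, and enhancers often lie far from the genes they act on. CTCF is the zinc finger protein found at insulators and at the anchors of chromatin loops, and Matrin 3 is an RNA-binding protein of the nuclear matrix.

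H3K27ac lists held 17925 and 15972 peaks in shSATB1 and 17863 and 17141 in shCtrl, and CTCF lists held 14695 to 20284 in shSATB1 and 31141 to 32540 in shCtrl. Matrin 3 lists held 24566 and 2105. Depth per library is unknown, because the lists carry no read totals. The SATB1 lists, of 15210 and 14726 peaks, shared 6001 exact peak starts, or 40.8% of the second; the highest share in the other 90 pairs was 1.03%. They were therefore counted as 1 sample, with no spread between them. The labelled T cell identity was checked by H3K27ac at gene ends. It lay at an end of 18 and 17 of 22 T cell receptor signalling genes in shSATB1 and of 18 and 17 in shCtrl. In every H3K27ac list it also lay at an end of 2 of 14 myeloid markers, 2 or 3 of 12 erythroid and megakaryocyte markers and 5 of 12 B cell markers.

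Members rarely held a promoter. Windows of 300 bases around annotated transcript starts (250 before to 50 after) overlapped members in 52 cases, from 48 genes, 26 of them protein-coding. The 6 windows below come from protein-coding genes and are shown because they are exceptions to that position, at a transcription factor gene, genes of immune signalling, the glucocorticoid receptor gene and SATB1 itself. They were picked from the 26 after their values were seen. Sequences are RefSeq, build GRCh38.p14, 5′ to 3′ on the gene's strand. Capitals mark the letters searched for, on either strand. ETS-family factors were searched as ACCGGAAG or as the shorter core CAGGAAG. The letters AGATAA stood for zinc finger factors of the GATA family, which includes GATA3 of T cells. E-box factors were searched as CAGCTG, the form bound by partners of TAL1. The core of the RUNX family was taken as ACCACA. High-mobility-group factors TCF and LEF were searched as CTTTGAT, and the AP-1 dimers of FOS and JUN as TGACTCA. The windows are RUNX2 at chr6:45328080-45328379 (plus strand), TRAT1 at chr3:108822536-108822835 (plus), SAMSN1 at chr21:14546266-14546565 (minus), PIK3CG at chr7:106865229-106865528 (plus), NR3C1 at chr5:143434760-143435059 (minus) and SATB1 at chr3:18438687-18438986 (minus).
RUNX2: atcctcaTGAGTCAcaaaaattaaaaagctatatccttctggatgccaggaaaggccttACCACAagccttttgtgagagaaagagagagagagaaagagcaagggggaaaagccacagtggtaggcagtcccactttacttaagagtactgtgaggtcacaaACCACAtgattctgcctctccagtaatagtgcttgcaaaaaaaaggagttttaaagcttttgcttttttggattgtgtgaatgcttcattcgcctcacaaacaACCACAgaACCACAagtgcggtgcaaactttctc
TRAT1: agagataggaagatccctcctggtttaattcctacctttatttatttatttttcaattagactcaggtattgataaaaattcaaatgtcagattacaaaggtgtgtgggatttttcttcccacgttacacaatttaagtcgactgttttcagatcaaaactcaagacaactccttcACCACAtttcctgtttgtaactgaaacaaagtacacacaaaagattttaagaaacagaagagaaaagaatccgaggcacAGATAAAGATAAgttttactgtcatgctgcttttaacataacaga
SAMSN1: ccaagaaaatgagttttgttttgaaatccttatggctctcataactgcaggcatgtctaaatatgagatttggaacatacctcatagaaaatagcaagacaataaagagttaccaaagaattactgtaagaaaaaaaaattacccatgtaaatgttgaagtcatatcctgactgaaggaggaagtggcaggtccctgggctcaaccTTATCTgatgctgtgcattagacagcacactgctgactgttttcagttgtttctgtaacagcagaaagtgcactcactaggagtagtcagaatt
PIK3CG: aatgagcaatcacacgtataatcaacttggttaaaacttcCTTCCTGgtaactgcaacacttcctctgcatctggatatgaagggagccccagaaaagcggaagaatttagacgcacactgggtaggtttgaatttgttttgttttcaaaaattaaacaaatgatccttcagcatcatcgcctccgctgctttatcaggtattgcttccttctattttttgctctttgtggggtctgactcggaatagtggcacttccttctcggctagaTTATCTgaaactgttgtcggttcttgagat
NR3C1: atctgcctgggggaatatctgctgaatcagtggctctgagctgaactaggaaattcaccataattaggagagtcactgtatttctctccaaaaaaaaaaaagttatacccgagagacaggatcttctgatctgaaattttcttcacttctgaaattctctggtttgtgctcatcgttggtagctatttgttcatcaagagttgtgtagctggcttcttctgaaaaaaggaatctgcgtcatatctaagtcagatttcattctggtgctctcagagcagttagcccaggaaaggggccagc
SATB1: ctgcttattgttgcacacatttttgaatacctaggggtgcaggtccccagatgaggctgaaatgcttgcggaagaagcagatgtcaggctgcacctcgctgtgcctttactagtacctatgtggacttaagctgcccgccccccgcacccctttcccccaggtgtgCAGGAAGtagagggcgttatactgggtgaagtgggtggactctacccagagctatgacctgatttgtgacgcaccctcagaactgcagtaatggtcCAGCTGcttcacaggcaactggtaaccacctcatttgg

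RUNX2, a Runt-family transcription factor gene, had 4 RUNX matches and 1 AP-1 match in this window, and it was 1 of the gene's 2 windows. TRAT1, which encodes an adaptor of the T cell receptor complex, had 2 adjoining GATA matches and 1 RUNX match. SAMSN1, a lymphocyte adaptor gene, had 1 GATA match and no CpG. PIK3CG, the catalytic subunit of PI3-kinase gamma, had 1 ETS and 1 GATA match. NR3C1, the glucocorticoid receptor gene, had none of the 6 motifs in the window shown, which was 1 of 2 over members among its 7. SATB1 had 1 ETS and 1 E-box match in 1 of its 4 windows, while 2 of its other windows lay in regions that held CTCF as well. A match says only that the letters are there.

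Member promoter windows had less GC than promoter windows in general. Their median GC content was 41.5% (quartiles 37.8 and 46.5), against 63.7% (57.7 and 69.3) in 5093 windows over the comparison class and 58.7% in all 34961 windows. They held a median of 3 CpG dinucleotides, against 25 in the comparison class and 14 overall. GATA letters were in 16 of the 52 member windows (30.8%), in 5.01% of comparison windows and in 10.3% of all windows. RUNX letters were in 13 (25%), against 10.8% and 13.1%, and ETS letters in 11 (21.2%), against 17.3% and 14.7%. E-box letters were in 21.2%, against 15.0% and 18.0%. AP-1 letters were in 6 windows (11.5%), against 2.59% and 4.92%, and TCF/LEF letters in 3 (5.77%), against 1.81% and 2.63%. Among AT-rich letters, TATAAA was in 26.9%, against 5.58% and 11.5%, AATATA in 25%, against 3.16% and 8.11%, and ATTATA in 17.3%, against 2.12% and 6.64%. CCCTC and GGGGG, weak parts of the CTCF motif, were in 38.5% and 19.2% of member windows, in 79.0% and 67.6% of comparison windows and in 71.3% and 58.5% of all. The part of GC content in these differences was not tested.

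Members lay far from genes' ends. A protein-coding gene end lay within 2 kb of 72 members (5.35%, 95% Wilson interval 4.27 to 6.68), against 43.3% (42.3 to 44.4) of the comparison class, a difference of −38.0 percentage points (95% Newcombe interval −39.5 to −36.3). Another 660 members (49%) lay inside genes and 615 (45.7%) outside genes, against 34.2% and 22.5% of the comparison class. The median distance to a protein-coding transcript start was 74.1 kb (quartiles 23.3 and 193 kb) for the 1277 members with a start annotated on their chromosome in the table used, against 9.68 kb for 8185 regions of the comparison class. Members over 100 kb from any start made up 41.3%, against 15.5%, a difference of 25.8 points (23 to 28.7). Regions are not replicates, and these intervals cover counting error only. Widths were alike in size, with medians of 1420 bp and 1448 bp.

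**Figure D1:**
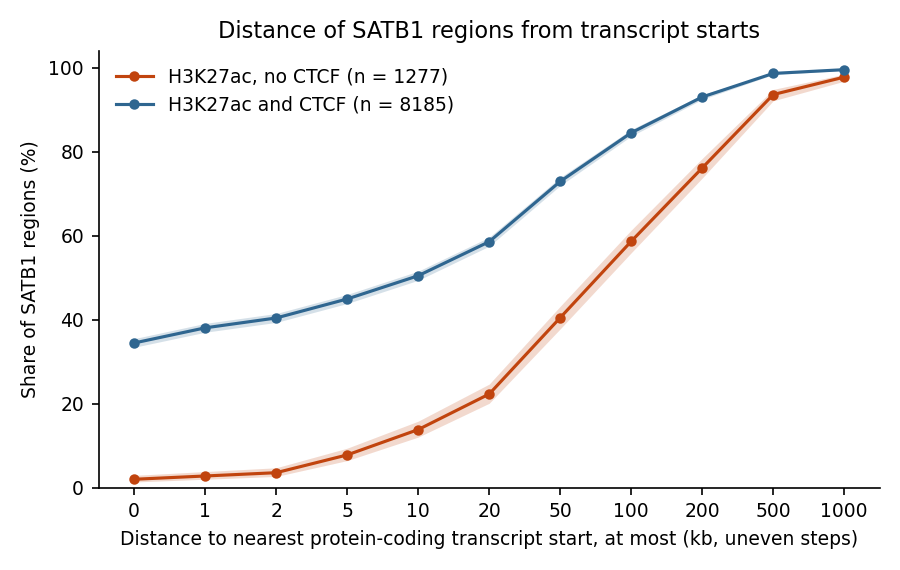
Cumulative share of SATB1 regions (y axis, %) within a given distance of the nearest annotated start of a protein-coding transcript (x axis, kb, uneven steps), for SATB1 regions with H3K27ac and no CTCF and for those with H3K27ac and CTCF; shading is the 95% Wilson interval. Within 2 kb lay 3.60% of the regions without CTCF and 40.4% of those with it, and within 100 kb 58.7% and 84.5%.

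The edges of the rule were as follows. The smallest overlaps of a member with H3K27ac were 11, 23 and 89 bp, but H3K27ac covered the whole region in 1034 members (76.8%). The closest CTCF peaks to members ended 0, 0 and 2 bp away, and 30 members had a CTCF peak within 100 bp. Just outside, the smallest CTCF overlaps in the comparison class were 15, 25 and 26 bp, and the SATB1 regions without CTCF that came closest to H3K27ac lay 20, 28 and 32 bp from it. In the comparison class 7619 regions (89.7%) held CTCF in all 3 lists and 439 (5.17%) in 1 list. With each CTCF list cut to its 14695 highest peaks and each H3K27ac list to its 15972 highest, the rule selected 4113 regions, of which 12.4% had a gene end within 2 kb.

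Members were not remote from CTCF in most cases. The median gap to the nearest control CTCF peak was 13.0 kb (quartiles 3.23 and 46.7 kb), 18.8% lay within 2 kb of one, 45.1% within 10 kb and 86.2% within 100 kb. The 1982 SATB1 regions with neither mark, which also lacked CTCF by the rule, had a median gap of 23.7 kb, with 7.16% within 2 kb and 28.7% within 10 kb. The intervals of the shares within 10 kb did not overlap (42.5 to 47.8 for members, 26.8 to 30.7 for regions with neither mark).

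The share of members differed between chromosomes. Chromosome 4 had the highest, with 127 of 471 SATB1 regions with H3K27ac (27%, 23.2 to 31.1), followed by X (24.4%), 3 (20.4%) and 13 (20.1%). Chromosome 19, known for its high gene density, had the lowest with 4 of 380 (1.05%, 0.410 to 2.67), followed by 17 (2.13%) and 22 (3.39%). The gene table had 1451 protein-coding genes on chromosome 19 and 770 on chromosome 4. Members numbered 16.5 per 100 protein-coding genes on chromosome 4 and 0.276 on chromosome 19, while all SATB1 regions with H3K27ac numbered 61.2 and 26.2.

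**Figure D2:**
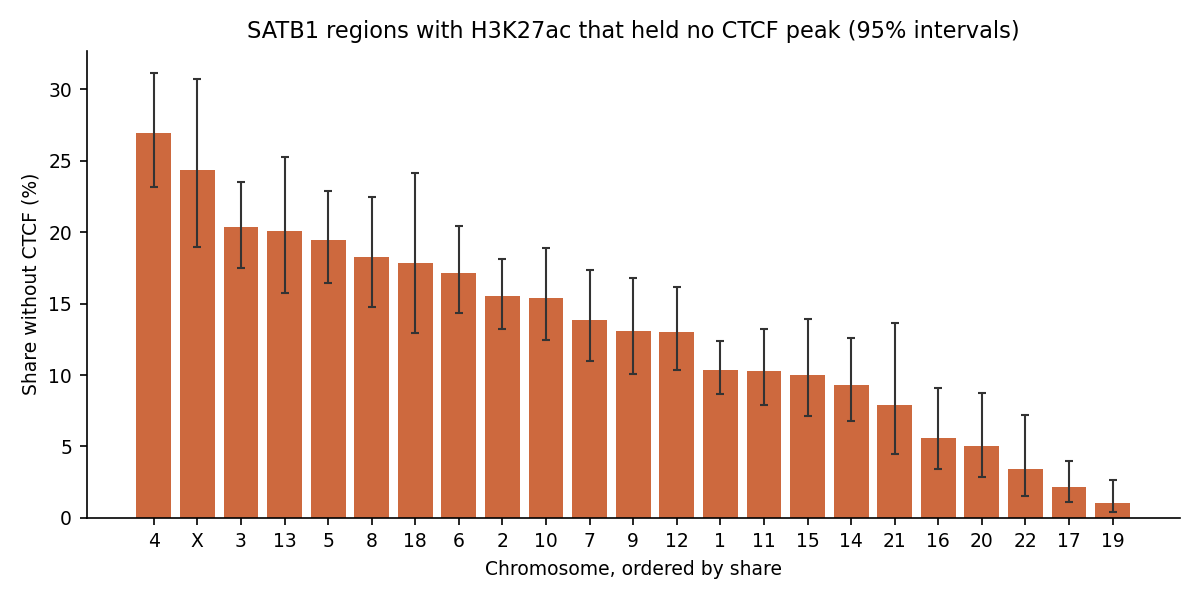
Share of SATB1 regions with H3K27ac that held no CTCF peak in shCtrl (y axis, %), by chromosome in order of the share (x axis); error bars are 95% Wilson intervals. Chromosomes 4 (27%) and X (24.4%) stand at the high end, and 22 (3.39%), 17 (2.13%) and 19 (1.05%) at the low end.

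The nearest other SATB1 region was one with H3K27ac and CTCF for 54.2% of members and another member for 363 (26.9%), while members made up 10.3% of all SATB1 regions. Other classes also had neighbours of their own class more often than its share of all regions: 30.5% against 15.2% for regions with neither mark, 19.5% against 9.52% for those with CTCF and no H3K27ac, and 75.1% against 65.0% for the comparison class. The median gap to the nearest region was 9.20 kb for members, against 16.2 kb for the comparison class. Along the chromosomes 799 members stood alone between SATB1 regions of other classes, and 1 run held 8 members in a row. That run spanned 66.7 kb at chr6:22070470-22137204, inside the long non-coding RNA gene CASC15 and 150 kb from PRL, the nearest protein-coding gene. Runs of 5 lay at ARID5B (chr10:61937366-61951392), across SUPT3H upstream of RUNX2 (chr6:45001196-45303456), and over wider spans at IGSF10 and PIK3C3.

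The 1347 members lay in 1248 H3K27ac regions, and 90 of these held 2 or more members, so members can share an H3K27ac peak and its rank. The CASC15 region (chr6:22041104-22092836, 51.7 kb) held 9 members, at SATB1 percentiles of 2.72 to 93.6. A percentile here is the rank of the highest peak maximum within its list, with 100 the highest. H3K27ac over it stood at percentiles of 99.9 in both shSATB1 lists and 99.9 in both shCtrl lists. Peaks covered 49.1 and 51.5 kb in shSATB1, against 48.4 and 51.7 kb in shCtrl. The other H3K27ac regions with most members lay in ARID5B (4 members in 8.31 kb), in GFRA1, a receptor gene for glial-derived neurotrophic factor, in ELF1, an ETS factor gene, and on chromosome 8 between MYC and GSDMC (3 members each). The chromosome 8 region began 1482 kb beyond MYC and spanned 36.2 kb. H3K27ac peaks covered 33.1 and 29.8 kb of it in shSATB1, against 34.7 and 34.3 kb in shCtrl. The borders of these H3K27ac regions come from the shCtrl peaks, which sets shCtrl coverage high, so the direction is a description with no test. Over all shCtrl H3K27ac regions, peaks covered 71.6% and 65.8% of the length in shSATB1, against 89.9% and 88.7% in shCtrl.

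Of 19974 protein-coding genes, 547 had a member inside or within 2 kb of an end (2.74% of genes). These genes were long, with a median of 153 kb against 24.2 kb for all protein-coding genes, and 43 had 3 or more members. ARID5B, a chromatin regulator gene linked by inherited variants to childhood leukaemia, had the most with 10, beside 13 regions of the comparison class. IKZF2, which encodes the Ikaros-family factor Helios, and SUPT3H, a subunit gene of the SAGA acetyltransferase complex, had 7 each. VAV3, a guanine nucleotide exchange factor gene, KLF12, a Krüppel-like repressor gene, and SSBP2, a partner gene of LDB1 complexes, had 6 each. GNAQ, FHIT and LRRC1 had 5 each. The gene table does not tell whether these members lay in introns or exons.

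In ARID5B (chr10:61901699-62096944), H3K27ac peaks covered 18.3 kb of the 18.3 kb of member sequence in both shSATB1 libraries, against 16.4 and 16.5 kb in the shCtrl libraries. The H3K27ac region with 4 of its members stood at percentiles of 85.9 and 86.9 in shSATB1, against 35.4 and 48.2 in shCtrl. Both shSATB1 percentiles were above both shCtrl percentiles at 8 of the 10 members, against 31.4% of the 1126 members called in all 4 lists as deposited and 27.2% of all SATB1 regions with H3K27ac called in them. These 8 are not separate observations, because the 10 members took their ranks from 5 and 6 H3K27ac peaks in shSATB1, and the 4 members above shared 1 peak in every library. Nor are all their ranks of like stretches. At chr10:61950314-61951392 the shCtrl library 2 rank of 6.70 came from a peak that covered 2.78% of the member. At chr10:62023728-62025536 the shSATB1 library 1 rank of 84.3 came from a peak of 27.1 kb, against shCtrl peaks of 3.9 and 3.7 kb. The groups overlapped at chr10:61992655-61993674, and at chr10:62025541-62027288 shCtrl library 1 had no call. Its members ranked from 0.962 to 82.2 in SATB1, lay 0.319 to 7.86 kb from CTCF peaks, and 4 overlapped the longer Matrin 3 list, which overlapped 67.6% of all members.

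In IKZF2 (chr2:212999698-213152456) all 7 members overlapped the longer Matrin 3 list, against 67.6% of all members. H3K27ac percentiles were higher in both shSATB1 libraries than in both shCtrl libraries at 4 of the 7, against 31.4% of members. The member at chr2:213097266-213100346 stood at 98.1 and 97.9 in shSATB1, against 15.7 and 24.8 in shCtrl. Its shSATB1 values came from single peaks of 30.7 and 34.3 kb that also reached the next member (chr2:213106169-213111299), whereas its shCtrl peaks were 2.83 and 3.28 kb long and stopped short of it. That next member stood at 95.3 and 93.2 in shCtrl, so the ranks at the first are not of the same stretch in both arms. The member at chr2:213145532-213146339 stood at 96.6 and 95.6 in shSATB1, against 63.7 and 46.2 in shCtrl, from peaks of 11 and 18.6 kb in shSATB1, against 1.29 and 1.04 kb in shCtrl. Covered length did not separate the arms, at 21.3 and 15.3 kb of 22 kb in shSATB1, against 17.6 and 20.2 kb in shCtrl.

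**Figure D3:**
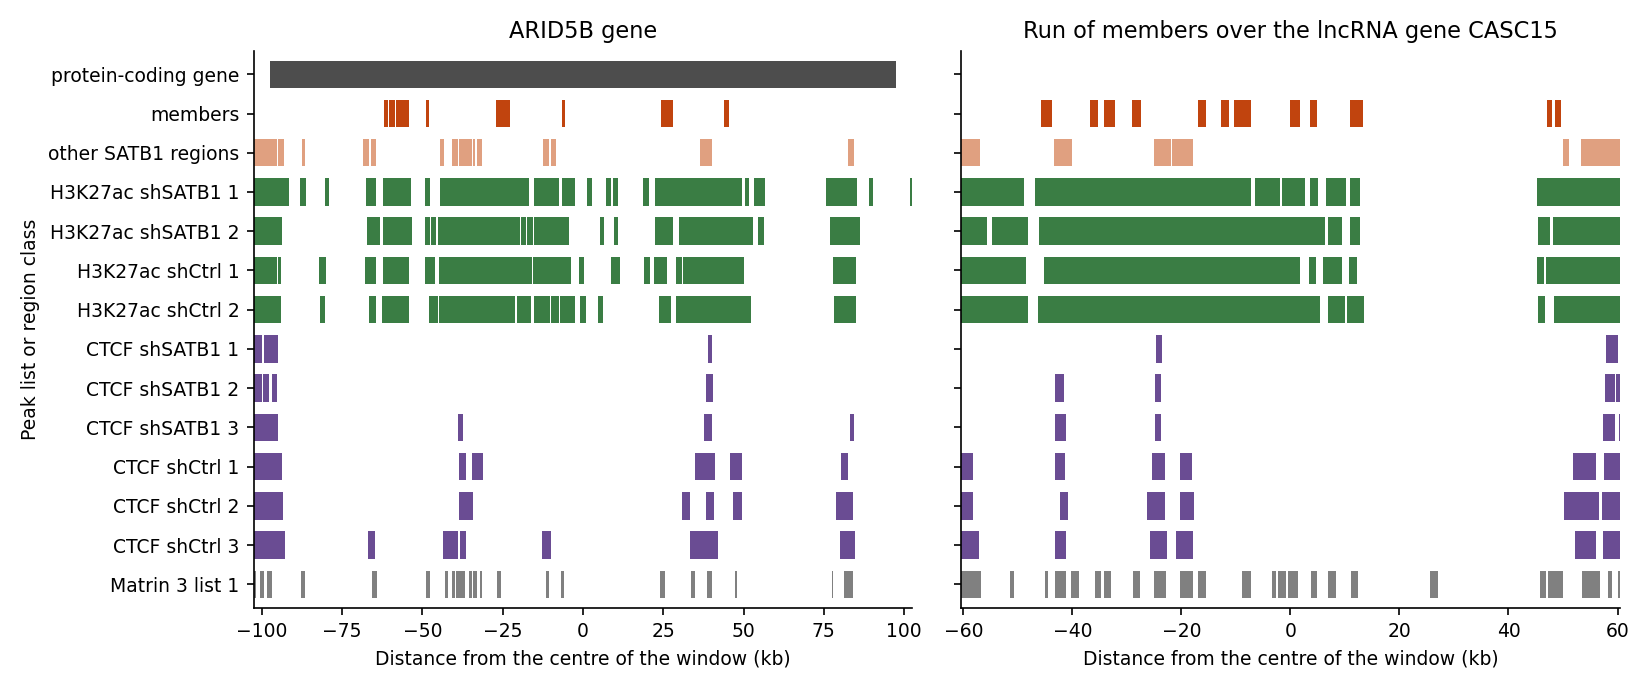
Peak lists over ARID5B (left) and over the run of members in CASC15 (right), as distance from the centre of the window (x axis, kb); rows are the protein-coding gene, members, other SATB1 regions, and the peaks of each H3K27ac and CTCF library and of the longer Matrin 3 list. Members lie between CTCF peaks and mostly under long H3K27ac peaks in both arms, and the right window contains no protein-coding gene.

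Genes of T cell identity were among those with members, in lists chosen with results of these data known. T-lineage transcription factors had a member at 8 of 21 (38.1%), against 2.74% of all protein-coding genes. These were ARID5B; SATB1 and TOX, with 4 members each; LEF1, TCF12 and BACH2, with 2 each; and RUNX1 and ETS1, with 1 each. Their median length was 103 kb against 24.2 kb for all genes, and the part of gene length in this count was not tested. The same list had a region of the comparison class at 19 of 21 (90.5%), against 27.7% of all protein-coding genes. RUNX1 had 1 member beside 29 such regions, and LEF1 had 2 beside 10. Thymocyte genes had a member at 2 of 16, CD1E, a lipid-presenting molecule, and ARPP21. T cell receptor signalling had 2 of 22, the costimulatory receptor CD28 and the kinase PRKCQ. CDK6, a cell cycle kinase gene, had 4 members. Cytokine genes had CCR9 and TGFBR2 and apoptosis genes FAS and FASLG, 2 of 20 in each list. No member lay at the 20 immediate-early, 21 genome architecture or 20 ribosomal protein genes, nor at B cell, myeloid or erythroid markers. Neuronal markers had 1 (SYT1), as did epithelial and stromal markers (ACTA2, by the region that it shares with its neighbour FAS).

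Among these genes the members of CDK6 and CD28 lay under strong H3K27ac. The CD28 member, at a gene end and 0.193 kb from CTCF, stood at 96.9 and 97.4 in shSATB1 and at 98.4 and 97.8 in shCtrl. Median H3K27ac percentiles of the 4 CDK6 members were 99.98 and 67.2 in shSATB1, against 99.94 and 99.94 in shCtrl. The ETS1 member stood at 79.3 and 74.4 in shSATB1, against 99.1 and 99.3 in shCtrl, with both shSATB1 values below. Peaks covered 1.01 and 1.03 kb of its 1.03 kb in shSATB1, against 1.03 kb in both shCtrl libraries. A rank belongs to the whole H3K27ac peak, and peak lengths at CDK6 and ETS1 were not compared. The ranks in this paragraph are from the lists as deposited. In lists of equal length, 26.3% of SATB1 regions with H3K27ac called in all 4 had both shSATB1 percentiles below. That share is therefore not from the same lists as the ETS1 ranks. At SATB1 the median over its 4 members was 39.0 and 43.8 in shSATB1, against 51.2 and 16.9 in shCtrl, and the arms overlapped. H3K27ac covered 7.22 and 9.0 kb of the SATB1 members' 11.1 kb in shSATB1, against 7.03 and 6.99 kb in shCtrl. The members of FAS and FASLG ranked high in SATB1, at 93.5 and 72.6, with H3K27ac at 43.8 and 54.8 (FAS) in shSATB1, against 42.4 and 41.6 in shCtrl, and at 20.6 and 25.9 (FASLG), against 42.4 and 33.7.

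SATB1 and H3K27ac ranks chose the members only through being called, and are given as a description. The median SATB1 percentile was 43.6 in members, against 59.7 in the comparison class. The median H3K27ac percentile in shCtrl was 53.8, against 77.1. The 10 members highest in SATB1, 1 per gene, lay near or in PTPRR, CAPS2, STIM1, C1D, RTL3, LOC107984449, ANKRD44, LHX8, RNF125 and PCDH10, and 7 of them were outside protein-coding genes. All 10 overlapped the longer Matrin 3 list, against 67.6% of all members and 80.6% of members in the upper part of the SATB1 lists. The region at chr12:71007407-71009327, 86.7 kb from PTPRR, a tyrosine phosphatase gene, had the highest SATB1 percentile (99.6). H3K27ac there stood at 82.3 and 84.5 in shSATB1, against 69.9 and 72.9 in shCtrl. The region at chr2:68089534-68090446, 26.5 kb from C1D, a nuclear exosome cofactor gene, stood at 72.6 and 80.8 in shSATB1, against 5.76 and 5.74 in shCtrl. That inside STIM1 (chr11:4005602-4008286), the calcium sensor of store-operated entry, stood at 90.7 and 78.9 in shSATB1, against 2.59 and 28.9 in shCtrl. These percentiles come from lists cut to the 15972 highest peaks. In 8 of the 10, both shSATB1 percentiles were above both shCtrl percentiles, with RTL3 and PCDH10 as the others. The share was 34.2% of the 1055 members called in all 4 such lists and 30.6% of all SATB1 regions with H3K27ac called there. Among the 91 such members over the 90th SATB1 percentile, the group nearest to these 10 in SATB1 rank, it was 60.4%. In all 10 the maximum of the H3K27ac peak lay in the member or within 1 kb of it in each of the 4 lists.

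H3K27ac calls were mostly kept at members in SATB1 knockdown cells, but less often than at regions with CTCF. Members were called in 90.3% and 87.5% of cases in the shSATB1 lists, and by the rule in 98.7% and 98.6% in shCtrl, since a member can lie in a stretch of an H3K27ac region that 1 list alone covers. The comparison class was called in 98.1% and 96.1% in shSATB1. Both shSATB1 lists called 1138 members (84.5%, 82.5 to 86.3) and 95.4% of the comparison class, a difference of −11.0 points (−13.0 to −9.06). All H3K27ac regions of the shCtrl lists were called in both shSATB1 lists in 81.6%. No shSATB1 list called 90 members (6.68%, 5.47 to 8.14), against 1.25% of the comparison class, 1.99% of all SATB1 regions with H3K27ac and 8.01% of all shCtrl H3K27ac regions. Away from gene ends the shares in both lists were 84.4% and 94.9%. Without shSATB1 replicate 1 the share of members with no call was 12.5%, from the list of replicate 2 alone, and in the upper part of the SATB1 lists it was 3.93%.

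Part of this gap went with H3K27ac rank. Among regions at shCtrl percentiles of 0 to 25, 61.7% of members and 67.4% of the comparison class were called in both shSATB1 lists (difference −5.71 points, −13.2 to 1.67). The differences were −4.59 (−9.26 to −0.452) at percentiles of 25 to 50, −4.82 (−7.95 to −2.47) at 50 to 75 and −5.30 (−8.21 to −3.33) at 75 to 100. Away from gene ends they were 2.25 (−6.47 to 10.9), −2.08 (−7.26 to 2.75), −3.35 (−6.66 to −0.717) and −5.20 (−8.17 to −3.22) in the same order. These intervals cover counting error over regions only, not the spread between libraries, and the shCtrl calls behind the bands entered the selection.

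H3K27ac peaks covered 82.8% and 78.2% of the members' length in the shSATB1 libraries, against 89.6% and 89.7% in shCtrl. The means were 80.5% ± 3.22 and 89.7% ± 0.0350 (SD, n = 2 each), a difference of −9.18 points. Both shSATB1 libraries were below both shCtrl libraries. The difference was −3.46 points in the comparison class and −20.6 points over all shCtrl H3K27ac regions. The last set is of whole H3K27ac regions with their edges (median 2568 bp), while the others are SATB1 regions (medians 1420 and 1448 bp). Its value is therefore not of like stretches. All 3 sets were chosen on the shCtrl calls, which sets shCtrl coverage high and the direction with it, so these differences are a description with no test. Covered length was lower in both shSATB1 libraries than in both shCtrl libraries at 274 members (20.3%), against 12.0% of the comparison class and 13.1% of both classes together. It was higher in both at 91 members (6.76%), against 3.71% and 4.12%. Regions covered whole in all 4 libraries can be neither lower nor higher. They were 366 members (27.2%) and 3960 regions of the comparison class (46.6%), and their part in these shares was not tested.

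**Figure D4:**
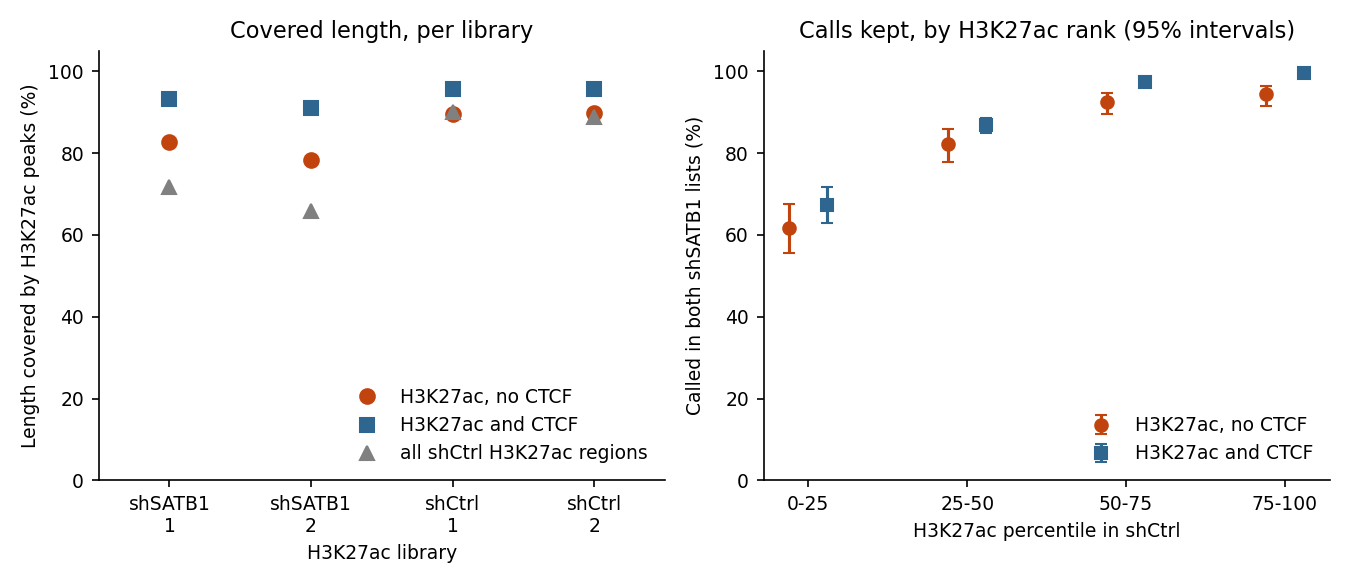
Left, share of region length covered by H3K27ac peaks (y axis, %) in each shSATB1 and shCtrl library (x axis), for SATB1 regions with H3K27ac and no CTCF, those with H3K27ac and CTCF, and all H3K27ac regions of shCtrl. The last are whole H3K27ac regions and not SATB1 regions. Right, share called in both shSATB1 lists (y axis, %) by H3K27ac percentile in shCtrl (x axis) with 95% intervals. Members sit at 82.8% and 78.2% in shSATB1 and at 89.6% and 89.7% in shCtrl, and their called share goes up with H3K27ac rank, from 61.7% to 94.4%.

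The 90 members without H3K27ac in shSATB1 ranked low in the control lists, with a median SATB1 percentile of 28.2 and a median H3K27ac percentile of 23.9. Members called in both shSATB1 lists had medians of 47.4 and 58.8. The longer Matrin 3 list overlapped 41 of the 90 (45.6%, 35.7 to 55.8) and 70.7% (67.9 to 73.2) of those called in both. The 10 of them highest in SATB1 lay at CMSS1, PIK3C3, DROSHA, UCP1, NR5A2, PCNX1, DYNC1I1, CXADR, GCM1 and TFPI, and 9 were inside these genes. CMSS1 (chr3:100018366-100019407) led with a SATB1 percentile of 89.2, and its H3K27ac stood at 46.7 and 24.8 in shCtrl. NR5A2, an orphan nuclear receptor gene, had the highest H3K27ac among them in shCtrl, at 66.8 and 76.2 (chr1:200153880-200154783). DROSHA, the nuclear microRNA-processing enzyme, had 15.7 and 65.7.

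H3K27ac rank after SATB1 knockdown differed along the SATB1 rank of members. To set ranks side by side, each H3K27ac list was cut to its 15972 highest peaks, and 1055 members called in all 4 were used. Among those over the 90th SATB1 percentile, median H3K27ac percentiles were 77.6 and 76.7 in shSATB1, against 62.9 and 60.6 in shCtrl. The median difference was 11.3 points (quartiles 0.0579 and 27.1) in these 91 members. It was 2.41 points at SATB1 percentiles of 75 to 90 (141 members), 0.473 at 50 to 75, −0.0157 at 25 to 50 and −0.152 at 0 to 25 (225 members). Both shSATB1 percentiles were above both shCtrl percentiles in 55 of the 91 (60.4%), and below both in 11 (12.1%). At SATB1 percentiles of 0 to 25 the shares were 24.0% above and 25.8% below. Over SATB1 regions with H3K27ac of both classes, 30.6% were above and 26.3% below.

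The rank belongs to the whole H3K27ac peak, which can reach beyond the member. Its median length over the 90th SATB1 percentile was 2.90 and 2.77 kb in shSATB1, against 2.54 and 2.64 kb in shCtrl. In 78 of the 91 the maximum lay in the member or within 1 kb of it in all 4 lists. In these the median difference was 12.1 points, with 62.8% above and 11.5% below, and at SATB1 percentiles of 0 to 25 it was −1.61 points in 120 of the 225. That restriction was chosen after seeing the data.

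The comparison class had the same order. Its median difference was −1.22 points at SATB1 percentiles of 0 to 25 and −0.611 at 25 to 50, both farther from 0 than in members. Above that it was closer to 0, at 0.0830, 1.01 and, over the 90th, 1.39 points, where 50.4% were above and 15.7% below. Its shCtrl percentiles over the 90th SATB1 percentile were 89.2 and 89.3, against 62.9 and 60.6 in members. Within members at shCtrl H3K27ac percentiles of 50 to 75, the median difference was 13.1 points over the 90th SATB1 percentile (27 members), 1.98 at 75 to 90 (54), −2.31 at 50 to 75 (107), −4.52 at 25 to 50 (103) and −9.46 at 0 to 25 (60). At H3K27ac percentiles of 75 to 100 the differences were 0.217, −1.60, −4.58, −3.33 and −0.0493 in the same order, with less spread and no steady order. In the comparison class over the 90th SATB1 percentile, it was 10.7 points at H3K27ac percentiles of 50 to 75 (193 regions) and 0.661 at 75 to 100 (877). At 0 to 25 and 25 to 50 it was 24.2 (13) and 18.8 points (70), against 48.3 (10) and 24.3 (22) in members. These H3K27ac bands were cut on shCtrl rank, which is also subtracted in the difference. Low bands therefore tend to rise and high bands to fall with no change in H3K27ac. At 0 to 25 and 25 to 50 the median was above 0 at every SATB1 rank in both classes. The sign within a band therefore cannot show a change, and the order along SATB1 rank within it was not tested. Calls followed SATB1 rank as well: both shSATB1 lists called 97.9% of the 94 members over the 90th SATB1 percentile and 75.7% of the 346 at 0 to 25. None of the 94 lacked a call in both, which allows a share of up to 3.19% (3 counts), against 12.4% of the 346. The shCtrl lists entered the selection, so these values are a description with no test.

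**Figure D5:**
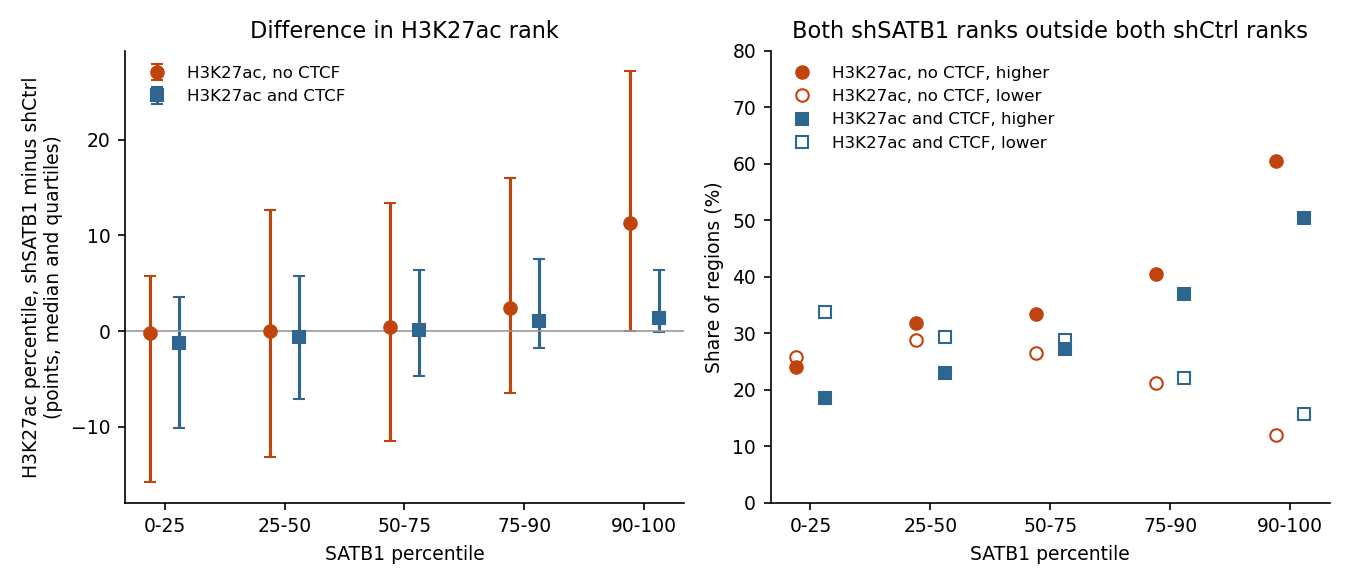
Left, H3K27ac percentile in shSATB1 minus shCtrl in lists of equal length (y axis, points; median and quartiles over regions) by SATB1 percentile (x axis). Right, share of regions (y axis, %) whose shSATB1 percentiles both lay above (filled) or both below (open) the shCtrl percentiles. Over the 90th SATB1 percentile the median difference was 11.3 points in SATB1 regions with H3K27ac and no CTCF, of which 60.4% were higher and 12.1% lower, and 1.39 points in those with CTCF. The classes were not matched in H3K27ac rank. Median shCtrl percentiles there were 62.9 and 60.6 without CTCF and 89.2 and 89.3 with it.

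CTCF stayed nearly uncalled at members in SATB1 knockdown cells. Peaks overlapped 1, 10 and 17 members in the 3 shSATB1 CTCF lists, and 20 (1.48%, 0.963 to 2.28) in at least 1. Regions with neither mark had 15 of 1982 (0.757%, 0.459 to 1.24), and all SATB1 regions without CTCF in shCtrl had 1.05%. Without shSATB1 replicate 3, the longest of these lists, the share of members was 0.742%. The median gap of the 20 to the nearest shCtrl CTCF peak was 9.61 kb, and 5 lay within 2 kb of one. CTCF lists were shorter in shSATB1 than in shCtrl. With lists cut to equal length, which also changes the members, the share was 11.1%.

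At least 2 shSATB1 lists called CTCF at 7 members. STIM1 was the 1 member with CTCF in all 3, 7.08 kb from the nearest shCtrl peak. The others lay 91.7 kb from LOC107984449, in PSMD1, a proteasome subunit gene, in RNF130, at the histone gene H4C12, in TOX, and 224 kb from PPP2R2D. The member at PPP2R2D (chr10:131676264-131677287) had H3K27ac at 55.1 and 52.0 in shSATB1, against 5.67 and 24.8 in shCtrl. The longer Matrin 3 list overlapped 6 of the 7, against 67.6% of all members.

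Matrin 3 lay at fewer members than regions with CTCF. The longer list overlapped 911 members (67.6%, 65.1 to 70.1) and 95% of the comparison class, a difference of −27.4 points (−30.0 to −24.9). Away from gene ends the shares were 67.5% and 92.7%. In the 4 bands of shCtrl H3K27ac percentile, from 0 to 25 up to 75 to 100, the difference was −31.9, −27.6, −19.0 and −28.7 points, and every interval lay below 0. The longer list overlapped 822 of the 1982 SATB1 regions with neither mark, a lower share than in members. It overlapped 1027 of the 1245 with CTCF and no H3K27ac, a higher share than in members. The shorter list overlapped 4 members (0.297%, 0.116 to 0.761) and 16.0% of the comparison class. Where Matrin 3 was called, its median percentile in the longer list was 35.3 at members, against 75.3 in the comparison class. The Matrin 3 lists, of 24566 and 2105 peaks, were not averaged. No control library was used here, so binding and general accessibility of chromatin cannot be told apart for any of the targets.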

How the data were processed

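The 14 CUT&Tag libraries came as 1 peak list each, called per sample, with position, total signal and maximum signal of every peak. The deposited signal is coverage, given as its sum and its maximum per peak, and the authors recorded no scaling. The build was GRCh38, and the tools used are those that the submitters' processing notes name, without version: SEACR, Bowtie2, Trim Galore, deepTools, SAMtools and, for all but the Matrin 3 samples, MACS2. Control libraries are not given in the sources used here. A threshold of 0.007 stands in the names of the SATB1 lists.

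Of 273747 peaks, 405 (0.148%) off chromosomes 1 to 22 and X were left out. Signal served only to rank peaks within a list. The RefSeq table (GRCh38.p14) gave 19974 protein-coding genes and does not tell exons from introns. Transcript starts came from RefSeq promoter windows, of which the table used holds none on chromosome 8. With no genome sequence at hand, motifs were searched in promoter windows and not under peaks. Shares carry 95% Wilson intervals and differences 95% Newcombe intervals. No permutation test over the H3K27ac libraries is given, since the shCtrl calls entered the selection.

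The members and the 14 gene lists (242 genes) were chosen with earlier results of these data known. Ranks in lists of equal length, bands of SATB1 rank, comparisons away from gene ends, the place of the peak maximum and the transcript starts were added after seeing the data. Named genes were the 10 members highest in SATB1 (1 per gene), the 10 genes with most members, listed genes with a member, the 10 highest members with no H3K27ac in shSATB1, those with CTCF in at least 2 shSATB1 lists, the 5 H3K27ac regions with most members, and SATB1; 1 gene that this rule names is not reported here. Other genes and the promoters shown were picked with their values in view. Alternatives changed the overlap rule, the CTCF rule, the window, list length, gene windows and each library. The scripts were tested on simulated lists with planted overlaps. Tools were scipy 1.17.1, pandas 2.3.3, numpy 2.4.6 and matplotlib 3.10.9 under Python 3.11.15. Positions are 1-based.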

Additional observations from a re-analysis of the deposited data

How the results depend on the processing

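The number of members was 535 in the upper part of each SATB1 list and 4113 with CTCF and H3K27ac lists cut to equal length (14695 and 15972 peaks), which frees regions of weaker CTCF peaks; it was 1094 to 1680 under the other rules. In those 2 settings, 89.9% and 91.5% of members were called in both shSATB1 H3K27ac lists, 3.93% and 3.50% in none, and 80.6% and 85.0% overlapped the longer Matrin 3 list. With equal lists, 11.1% had CTCF in at least 1 shSATB1 list and 12.4% a gene end within 2 kb. With no CTCF within 2 kb, gene ends lay at 4.20% and Matrin 3 at 70.4%; with CTCF called in at least 2 of 3 lists, CTCF appeared in shSATB1 at 2.32% and Matrin 3 at 71.2%. Gene ends lay within 1 kb of 3.86% and within 5 kb of 10.9% of members, and transcript starts within 2 kb of 3.60%. Matrin 3 overlap was 0.297% by the shorter list and 0.297% by both lists. Covered length was lower in shSATB1 under every setting run, by 4.10 points in the upper part of the SATB1 lists and by 5.43 points with equal lists. Every setting still chose members on shCtrl H3K27ac calls, which sets the direction, so the constant sign is not a test.

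Leaving out 1 library at a time gave 1347 to 1602 members and differences in covered length of −11.9 to −6.90 points. Where both shSATB1 H3K27ac lists were kept, 81.2% to 85.1% of members were called in both and 6.39% to 8.72% in none. Where 1 of them was left out, the list kept called 87.5% (replicate 2) or 90.3% (replicate 1) and missed 12.5% or 9.65%. CTCF in shSATB1 lay at 0.742% to 2.17% of members, gene ends at 5.12% to 5.67% and Matrin 3 at 63.7% to 69.8%. With the replicate number as a replicate block the difference was again −9.18 points. Differences between replicates 1 and 2 in covered share had a correlation of −0.00698 between the arms over 9845 regions. Regions covered whole in all 4 lists (366 members and 3960 of the comparison class) add no difference. The correlation therefore cannot show whether equal numbers paired the libraries.

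Peak lists record calls and not depth, and a change in signal cannot be told apart here from a change in where calling stopped.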

Other observations

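SATB1 regions with H3K27ac and no CTCF differed from the 1982 SATB1 regions with neither mark in their neighbours. The nearest SATB1 region was 9.20 kb away (median) for members and 33.3 kb for regions with neither mark. It was a region with H3K27ac and CTCF for 54.2% of members and for 47.6% of regions with neither mark. SATB1 ranks were close, with median percentiles of 43.6 and 46.0, and distances to transcript starts were 74.1 and 66.3 kb.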
